A study of Mus musculus with 15 samples.

Results

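Transcript levels of 9 heat shock genes were followed in 15 mouse liver libraries. The genes were Hspa1a, Hspa1b, Hspa8, Hsph1, Dnajb1, Hsp90aa1, Hspd1, Hspe1 and Hspb1, out of 26839 genes in the joined count tables. They were chosen by symbol after counts of these same libraries had been seen in all 5 groups, so their levels and group differences are given as a description, with no test of their own. All livers came from male C57BL/6J mice that had received an adeno-associated virus of serotype AAV8, and each group held 3 libraries. Of these groups, 4 ate an FPC diet that produces non-alcoholic steatohepatitis (NASH) and drank sugar water for 16 weeks. Their viruses carried GFP (NASH GFP livers) or Activin A, both under the thyroxine binding globulin (TBG) promoter, which is active in hepatocytes, or a scrambled hairpin RNA (scramble livers) or a hairpin RNA against Gpnmb, both under the H1 promoter. The remaining group carried the GFP virus and ate standard chow for 16 weeks. The labels do not say that each library is a different mouse, so p-values here reflect only how far these samples scatter, which may be technical.

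Heat shock proteins are molecular chaperones that bind unfolded or newly made proteins and help them fold. When unfolded proteins build up, heat shock factor HSF1 is released from chaperones, binds heat shock elements in promoters and raises transcription of Hspa1a, Hspa1b, Dnajb1, Hsph1 and Hsp90aa1. In liver, a tissue with a high rate of protein synthesis and secretion, Hspa8, Hsp90ab1 and the mitochondrial pair Hspd1 and Hspe1 are made at all times, and body temperature drives daily cycles of several of these transcripts.

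A heat shock element is a run of GAA units in alternating orientation. RefSeq promoter entries (GRCm38.p6), which span the start of each gene, were searched on both strands for an adjoining pair of units, GAANNTTC or TTCNNGAA. They were also searched for 3 adjoining units, a form that contains both pairs. Of the 9 genes 7 had an entry, and 5 of the 7 held a pair, against 15.1% of 27025 entries for all genes. The 3-unit form stood in 2 of the 7, Hsph1 and Hspe1, and in 0.529% of all entries. In Hspe1 it lay upstream of the RefSeq start, but in Hsph1 it reached past the RefSeq start. The Hsph1 window below therefore shows a separate pair. The sequences below show the upstream pairs, as the letters searched for. Of these windows only that of Hspe1 holds the 3-unit form. Binding of heat shock factors to any of them was not measured. Capitals mark the units, and each is written 5′ to 3′ on the strand of its gene.
Hspa1a and Hspa1b: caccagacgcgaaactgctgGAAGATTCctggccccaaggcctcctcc
Hsph1: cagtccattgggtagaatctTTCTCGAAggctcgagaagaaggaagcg
Hspe1: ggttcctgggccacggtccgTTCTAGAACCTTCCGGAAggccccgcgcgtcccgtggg
Hspb1: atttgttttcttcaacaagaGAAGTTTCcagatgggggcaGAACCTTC
The first of these windows is letter for letter the same before both genes, at chr17:34972233-34972280 for Hspa1a and chr17:34959315-34959362 for Hspa1b on the minus strand, and its pair lies 104 to 97 bases upstream of either start. Distances here are counted from RefSeq starts. In Hsph1 the window is chr5:149636342-149636389 on the minus strand, with the pair 33 to 26 bases upstream of that start. The Hsph1 gene model used for the counts begins further out, at base 149636376, so this pair lies within the gene model. The Hspe1 window, chr1:55088039-55088096 on the plus strand, holds a run of units 89 to 72 bases upstream. Hspb1 has separate pairs 117 to 110 and 97 to 90 bases upstream in chr5:135887782-135887829 on the plus strand. In the entries of Dnajb1 and Hspd1 these letters were not found. The Hspd1 entry, chr1:55088194-55088493, does not reach the Hspe1 window, which lies within the Hspd1 gene model.

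Libraries held 15276879 to 23467867 counts. Gpnmb stood at 24.9 to 40.4 CPM (counts scaled to 1000000 per library) in NASH GFP livers, at 26.2 to 36.4 CPM in scramble livers and at 1.26 to 3.30 CPM in Gpnmb hairpin livers. Inhba, which encodes the Activin A subunit, stood at 24.0 to 25.7 CPM in Activin A livers and at 7.86 to 8.13 CPM in NASH GFP livers. Summed levels of 8 hepatocyte markers were 58978 to 119875 CPM. They ran from 58978 to 73481 CPM in NASH GFP livers and from 86553 to 119875 CPM in chow livers. NASH GFP library 3 stood apart from the other two: without it, scramble and NASH GFP livers differed by 2034 called genes in place of 49, and Activin A and NASH GFP livers by 1435 in place of 806. In that library the clock genes Per3 and Per2 were at 16.7 and 19.9 CPM, against 32.1 to 40.6 and 42.2 to 56.7 CPM in libraries 1 and 2 of its group. The labels give no date, time of day or batch.

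Per kilobase of gene model, Hspa8 was the most abundant of the 9 genes, with a mean over the libraries of 269.6 CPM per kb. Hspd1 followed at 200.5 CPM per kb, then Hsp90aa1 at 77.3, Hspb1 at 75.4 and Hspe1 at 60.9 CPM per kb. The strongly inducible genes were scarcer: Hspa1b stood at 13.6, Hsph1 at 11.8, Dnajb1 at 8.36 and Hspa1a at 0.708 CPM per kb. The places of Hspe1 and Hsph1 depend on the length used. Their gene models have 1474 and 7266 bases, and their longest coding transcripts 774 and 3802 bases. By group, 6 of the 9 genes had their lowest mean in scramble livers, and 4 had their highest in Gpnmb hairpin livers and 3 in chow livers. The plot of each library shows this order for each gene. In bulk tissue, a lower level can come from fewer cells that hold a transcript or from less of it per cell, which cannot be told apart.

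**Figure D1:**
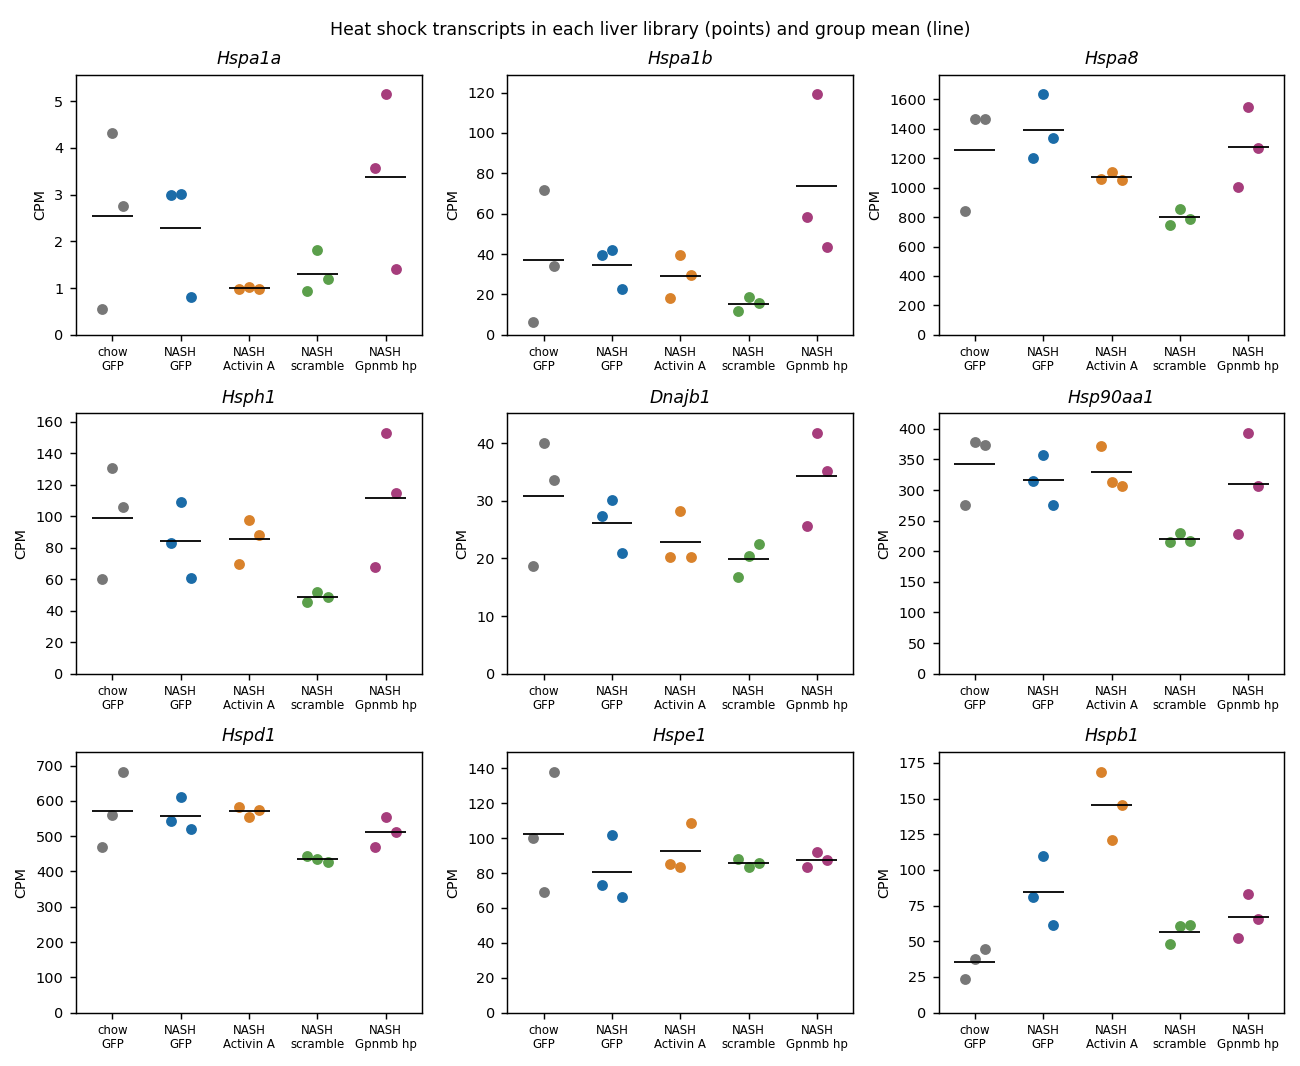
Level of each heat shock gene in CPM (vertical axis, linear from 0) in the 15 libraries, with 3 points per group and a line at the group mean. The scramble libraries sit low and close together for Hspa8 (749 to 855 CPM), Hsph1 (45.6 to 51.7 CPM) and Hsp90aa1 (215 to 230 CPM), Hspb1 is highest in Activin A livers (121 to 169 CPM), and the chow libraries of Hspa1b spread from 6.14 to 71.5 CPM.

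Hspa1b and Hspa1a encode nearly identical forms of the stress-inducible cytosolic HSP70 and lie 9951 bases apart on chromosome 17 (GRCm38, 34956436 to 34959238 and 34969190 to 34972156, minus strand). Hspa1b stood at 58.3, 119 and 43.5 CPM in Gpnmb hairpin libraries 1 to 3 and at 11.9, 19.0 and 15.6 CPM in scramble libraries 1 to 3. It stood at 39.7, 41.8 and 22.8 CPM in NASH GFP libraries and at 18.1, 39.6 and 29.7 CPM in Activin A libraries. Chow libraries gave 6.14, 71.5 and 34.1 CPM, an 11.6-fold range within a group. All hairpin libraries lay above all scramble libraries, all NASH GFP libraries lay above them as well, and the chow libraries held both the lowest value of all 15 and the second highest. Hairpin livers were 2.28 ± 0.32 (SE) higher than scramble livers on the log2 scale, and scramble livers 1.19 ± 0.24 lower than NASH GFP livers by the same measure, a log2 fold change of -1.19. In the order of group means (hairpin, chow, NASH GFP, Activin A, scramble) no neighbours were free of overlap.

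Hspa1a was scarce, with 9 to 98 counts per library. It stood at 3.57, 5.16 and 1.41 CPM in hairpin libraries and at 0.927, 1.81 and 1.19 CPM in scramble libraries, which overlapped. NASH GFP libraries gave 3.00, 3.02 and 0.807 CPM and Activin A libraries 0.982, 1.03 and 0.972 CPM. The chow libraries, at 0.547, 4.32 and 2.76 CPM, spread 7.90-fold, and library 1 was the lowest for Hspa1a as it was for Hspa1b. The 2 transcripts share sequence: 47.1% of the 100-base windows of Hspa1a also occur in Hspa1b, and 49.9% the other way. Of the counts of the pair, 2.54% to 8.70% went to Hspa1a. The rule for shared reads and the strand setting (not given in the sources used here) bear on both genes, and Hspa1a overlaps Gm20481 on the opposite strand over 2225 bases, so the split between the genes is uncertain and the sum is the safer value. That sum ran from 44.9 to 125 CPM in hairpin livers and from 12.8 to 20.8 CPM in scramble livers.

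Hspa8 encodes the constitutive cytosolic HSP70, HSC70, and lies on chromosome 9 (40800984 to 40810087, plus strand). Scramble libraries gave 749, 855 and 789.9 CPM and hairpin libraries 1004, 1547 and 1270.2 CPM. NASH GFP libraries gave 1202, 1638 and 1341 CPM and Activin A libraries 1061, 1104 and 1053 CPM. In chow libraries the level was 843, 1468 and 1465 CPM. The scramble libraries lay below every library of the other NASH groups, and Activin A libraries lay below all NASH GFP libraries. The log2 fold change was 0.70 ± 0.13 (SE) between hairpin and scramble livers, -0.83 ± 0.14 between scramble and NASH GFP livers and -0.39 ± 0.13 between Activin A and NASH GFP livers. Among neighbours in the order of means, only Activin A and scramble livers did not overlap. Of the 100-base windows of Hspa8, 62.8% also occur in other annotated genes, among them the pseudogene Gm15459, so its level is uncertain by what such copies took.

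Hsph1 encodes HSP110, which exchanges the nucleotide of HSP70, and lies on chromosome 5 (149614287 to 149636376, minus strand). It stood at 67.9, 153 and 115 CPM in hairpin libraries and at 45.6, 51.7 and 49.0 CPM in scramble libraries. The NASH GFP libraries stood at 83.1, 109 and 61.1 CPM, Activin A libraries at 69.8, 97.9 and 88.2 CPM and chow libraries at 60.2, 130.5 and 106 CPM. Every scramble library lay below every library of the other 4 groups, which overlapped each other. The log2 fold change was 1.22 ± 0.22 (SE) for hairpin against scramble livers and -0.81 ± 0.18 for scramble against NASH GFP livers. None of the 100-base windows of Hsph1 occurs in another annotated gene.

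Dnajb1 encodes HSP40, the J-domain partner that stimulates the ATPase of HSP70, and lies on chromosome 8 (83608193 to 83612653, plus strand). Hairpin libraries gave 25.7, 41.8 and 35.2 CPM and scramble libraries 16.8, 20.5 and 22.5 CPM. Levels in NASH GFP libraries were 27.4, 30.1 and 21.0 CPM, in Activin A libraries 20.2, 28.2 and 20.3 CPM and in chow libraries 18.7, 40.0 and 33.7 CPM. Hairpin and scramble livers, the groups with the highest and lowest mean, did not overlap, at a log2 fold change of 0.81 ± 0.16 (SE). All groups that are neighbours in the order of means overlapped. Like Hsph1, Dnajb1 shares no 100-base window with another annotated gene.

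Hsp90aa1 encodes the inducible cytosolic HSP90, which holds client proteins such as kinases and steroid receptors, and lies on chromosome 12 (110690605 to 110702728, minus strand). Scramble libraries stood at 215, 230 and 218 CPM and hairpin libraries at 229, 394 and 307 CPM. In NASH GFP libraries the level was 314, 357 and 276 CPM, in Activin A libraries 372, 313 and 306 CPM and in chow libraries 275, 379 and 374 CPM. Hairpin library 1 stood within the scramble range, and the other 2 hairpin libraries above it. The log2 fold change was 0.51 ± 0.15 (SE) for hairpin against scramble livers and -0.54 ± 0.12 for scramble against NASH GFP livers, whose libraries did not overlap. Of its windows 47.5% occur in other annotated genes, so this level too is uncertain.

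Hspd1 and Hspe1 encode HSP60 and HSP10, the barrel and lid of the mitochondrial chaperonin. They lie head to head on chromosome 1 (55077835 to 55088243, minus strand, and 55088132 to 55091307, plus strand) and overlap over 112 bases. Hspd1 stood at 444, 436 and 427 CPM in scramble, 468, 555 and 513 CPM in hairpin, 542, 612 and 519 CPM in NASH GFP, 582, 554 and 576 CPM in Activin A and 471, 561 and 683 CPM in chow libraries. The scramble libraries lay below all others, at a log2 fold change of 0.26 ± 0.08 (SE) for hairpin against scramble livers and -0.38 ± 0.10 for scramble against NASH GFP livers. Hspe1 stood at 88.3, 83.4 and 85.8 CPM in scramble, 83.7, 92.3 and 87.3 CPM in hairpin, 73.0, 102 and 66.5 CPM in NASH GFP, 85.3, 83.6 and 109 CPM in Activin A and 100.1, 69.3 and 138 CPM in chow libraries. For Hspe1 all 5 groups overlapped, and the hairpin to scramble log2 fold change was 0.06 ± 0.07. Across the 15 libraries Hspe1 had a Pearson r of 0.42 with Hspd1 and of -0.11 to 0.21 with the other 7 genes, given as a description of libraries that share their groups.

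Hspb1 encodes the small heat shock protein HSP25 (HSP27 in humans), which holds unfolded proteins without using ATP and binds actin and intermediate filaments, and lies on chromosome 5 (135887919 to 135889563, plus strand). Its levels were 23.4, 37.7 and 44.8 CPM in chow libraries and 81.1, 110 and 61.5 CPM in NASH GFP libraries. Activin A libraries gave 169, 121 and 146 CPM. In scramble libraries it stood at 48.2, 60.5 and 61.6 CPM and in hairpin libraries at 52.3, 83.0 and 65.6 CPM. Chow libraries lay below all libraries on the NASH diet and Activin A libraries above all others, while the 3 remaining groups overlapped. Over the 15 libraries its r with the mean z-score of the 9 genes was 0.36, and on deviations from the group means it was 0.92. For Hspe1, the gene that followed the mean least, these were 0.28 and 0.32. Each gene is itself part of that mean, which by itself raises its r. Of its windows 42.7% occur in the pseudogene Hsp25-ps1.

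The comparison of Gpnmb hairpin with scramble livers asks what the knockdown of Gpnmb changed on the NASH diet. In this contrast 7 of the 9 genes were called higher (edgeR adjusted p under 0.05) and 0 lower, when 24.3% of the 14845 genes tested were called and 12.2% were called higher. Hspe1 and Hspb1 were not called. The libraries of 5 genes did not overlap (Hspa1b, Hspa8, Hsph1, Dnajb1 and Hspd1, all higher), as for 18.6% of all genes. These counts repeat what the choice of the genes rested on, and nothing is read from them. Log2 fold changes ran from 0.06 for Hspe1 to 2.28 for Hspa1b, with a median of 0.70. Within its group, hairpin library 2 was the highest for 9 of the 9 genes. Without it 4 of the 9 were called, when 17.3% of all genes were. Without scramble library 1, 2 or 3 the count was 4 of the 9 each time, when 20.7%, 14.7% and 12.7% of all genes were called.

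**Figure D2:**
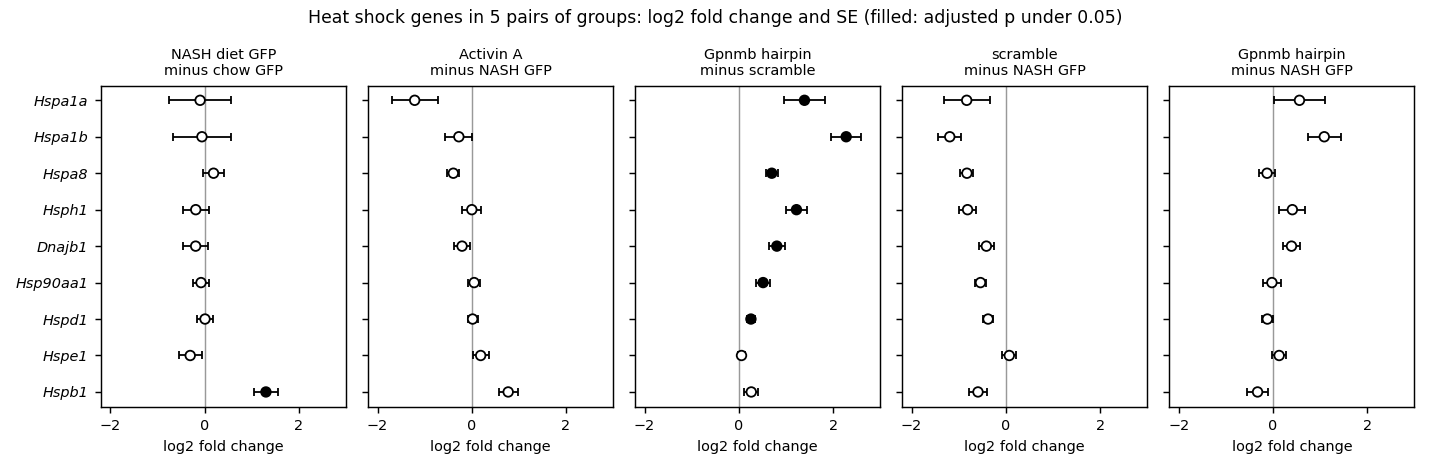
Log2 fold change (point) and SE (bar) of the 9 heat shock genes in 5 pairs of groups, with filled points where edgeR's adjusted p was under 0.05. For Hspa1b the change was 2.28 against scramble livers and 1.09 against NASH GFP livers, and the scramble livers themselves stood 1.19 below NASH GFP livers (log2 fold change -1.19).

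Scramble and NASH GFP livers are both controls of the NASH diet, and their comparison shows how far controls differ. Of the 9 genes 5 had scramble libraries that all lay below all NASH GFP libraries (Hspa1b, Hspa8, Hsph1, Hsp90aa1 and Hspd1), as had 10.9% of all genes. None was called by edgeR, when 0.324% of 15103 genes were called, though 7 of the 9 had an unadjusted p under 0.05, as had 19.1% of all genes, and DESeq2 called 5, all lower, when it called 5.28% of all genes and 3.14% lower. Without NASH GFP library 3, edgeR called 8 of the 9 lower, all but Hspe1, when 13.1% of genes were called and 6.68% were called lower. Virus promoter, hairpin RNA and any batch differ between these groups together and cannot be told apart. Between these controls 2 of 14 immediate early genes fell, at summed levels of 312 to 365 CPM in scramble and 464 to 498 CPM in NASH GFP livers, and the part of that difference here was not tested.

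When the hairpin livers were compared with the NASH GFP livers instead, an alternative chosen after the data had been seen, edgeR called 0 of the 9 genes (1 at an unadjusted p under 0.05), although 14.0% of 14661 genes were called and 31.1% had an unadjusted p under 0.05. Log2 fold changes there were 1.09 ± 0.35 (SE) for Hspa1b, 0.56 ± 0.54 for Hspa1a, 0.41 ± 0.28 for Hsph1 and 0.39 ± 0.19 for Dnajb1. They were -0.13 ± 0.18 for Hspa8, -0.02 ± 0.19 for Hsp90aa1, -0.12 ± 0.12 for Hspd1, 0.13 ± 0.15 for Hspe1 and -0.33 ± 0.22 for Hspb1. So Hspa8, Hsp90aa1, Hspd1 and Hspb1 had opposite signs against the 2 controls. Both comparisons use the same hairpin libraries.

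The diet comparison, NASH GFP against chow GFP livers, asks what the diet changed under the same virus. Only Hspb1 was called among the 9 genes, higher by 1.30 ± 0.26 (SE) on the log2 scale, when 17.0% of 14388 genes were called, 11.2% higher and 5.82% lower. It was also the only gene of the 9 whose groups did not overlap, as for 18.9% of all genes in that direction. For the other 8 genes log2 fold changes lay between -0.31 ± 0.24 (Hspe1) and 0.19 ± 0.23 (Hspa8), each smaller than 1.5 times its SE. The 0.61 SE of Hspa1b, with a log2 fold change of -0.06, reflects chow libraries from 6.14 to 71.5 CPM: without chow library 2 the value was 0.81 and without chow library 1 it was -0.59.

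The Activin A comparison uses the same NASH GFP libraries as the diet comparison, so the values of the 2 comparisons are not independent. Here Hspb1 stood 0.77 ± 0.20 (SE) higher and Hspa8 0.39 ± 0.13 lower (log2 fold change -0.39), each without overlap of the libraries, as for 13.5% of all genes in the higher and 12.8% in the lower direction. EdgeR called 0 of the 9 genes when 5.52% of 14598 genes were called, and 3 had an unadjusted p under 0.05 against 20.1% of all genes, whereas DESeq2 called Hspb1 and Hspa8 and 8.62% of all genes. The lowest value was that of the scarce Hspa1a, -1.21 ± 0.49, which was not called. Without NASH GFP library 3, edgeR called Hspb1 (log2 fold change 0.59 ± 0.16) and Hspa1a (-1.60 ± 0.33), when 9.56% of genes were called. Without NASH GFP library 2 it called Hspb1 alone, at 1.02 ± 0.17, when 4.2% of genes were called. Log2 fold changes of Hsp90aa1, Hspd1, Hspe1, Dnajb1 and Hspa1b were 0.05 ± 0.13, 0.02 ± 0.10, 0.19 ± 0.17, -0.21 ± 0.17 and -0.27 ± 0.28. Hsph1 had means of 85.3 ± 14.3 CPM (SD, n = 3) and 84.3 ± 23.9 CPM.

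Other genes of the pathway were followed in 9 lists with 76 genes, of which 71 were tested in each comparison. Against scramble livers, 17 rose and 4 fell in hairpin livers, at a median log2 fold change of 0.13, when 12.2% of all genes rose and 12.0% fell. On the diet 3 of the 71 rose and 1 fell, when 11.2% of all genes rose and 5.82% fell. Under Activin A edgeR called 0, with 10 of the 71 at an unadjusted p under 0.05 against 20.1% of all genes, and DESeq2 called 3 against 8.62% of all genes. Between the controls edgeR called 0, with 25 of the 71 at an unadjusted p under 0.05 against 19.1% of all genes, and DESeq2 called 12 against 5.28%. Between the controls 11 of the 71 had a log2 fold change above 0, and the median was -0.16. Against NASH GFP livers, 3 rose and 4 fell in hairpin livers, at a median of -0.06, when 5.98% of all genes rose and 8.02% fell.

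**Figure D3:**
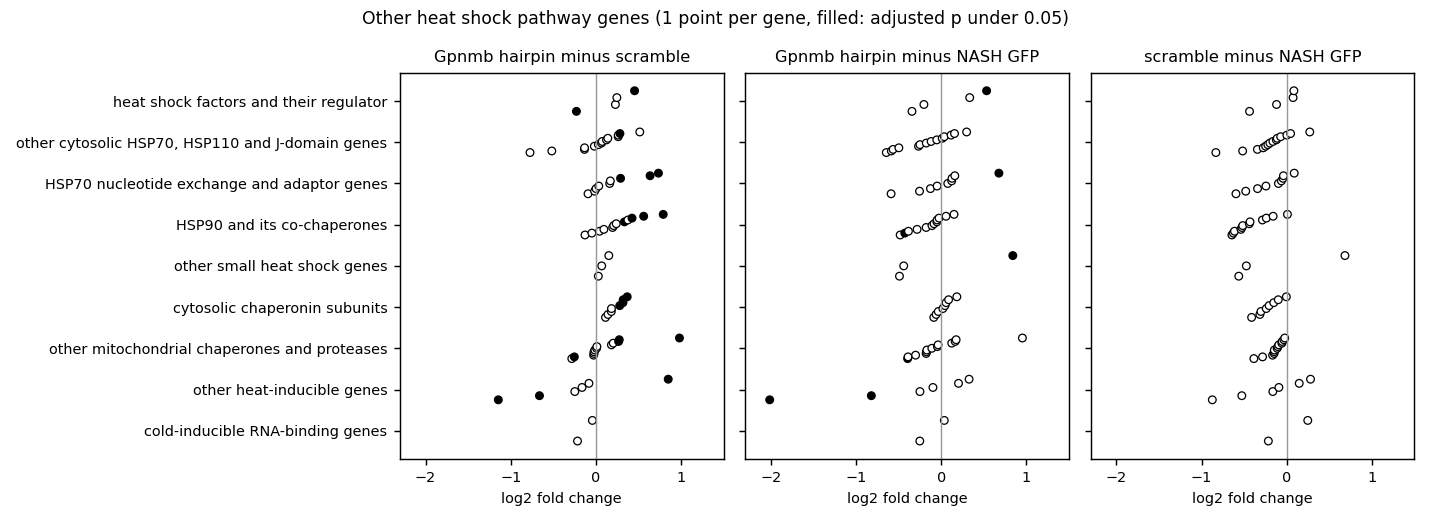
Log2 fold change of each tested gene of 9 lists of heat shock pathway genes, 1 point per gene, filled where edgeR's adjusted p was under 0.05, in 3 pairs of groups. Against scramble livers 17 of 71 points are filled to the right of 0, against NASH GFP livers 3, and for scramble against NASH GFP livers 11 of 71 points lie to the right of 0 and 0 are filled.

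Of the heat shock factors, Hsf1, the main activator of heat shock genes, did not pass the test in any comparison. It stood at 19.0, 21.3 and 19.7 CPM in hairpin libraries and at 18.2, 17.8 and 15.5 CPM in scramble libraries, without overlap (log2 fold change 0.25 ± 0.10 (SE), edgeR adjusted p = 0.101). On the diet its log2 fold change was -0.08 ± 0.15 and under Activin A 0.27 ± 0.12. Hsf2, a related factor that can act together with HSF1, stood at 33.9, 45.4 and 33.9 CPM in hairpin libraries and at 29.3, 28.6 and 26.1 CPM in scramble libraries. It rose against scramble livers by 0.46 ± 0.12 (edgeR adjusted p = 0.0171) and against NASH GFP livers by 0.53 ± 0.15 (edgeR adjusted p = 0.0426). Hsbp1, which binds and restrains HSF1, fell against scramble livers by 0.23 ± 0.07 (edgeR adjusted p = 0.0417). Factor activity depends on protein state, which transcript counts do not measure.

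Among 14 tested genes of other cytosolic HSP70, HSP110 and J-domain proteins, 1 rose in hairpin against scramble livers, the J-domain gene Dnaja2 by 0.28 ± 0.06 (SE, edgeR adjusted p = 0.0078), and the list had a median of 0.07. Of 9 genes that exchange the nucleotide of HSP70 or hand over its clients, 3 rose. Bag4 rose by 0.74 ± 0.11 (edgeR adjusted p = 0.00115), Bag3, which links HSP70 to autophagy and is a known HSF1 target, by 0.64 ± 0.12, and St13, the HSP70-interacting protein, by 0.29 ± 0.06. Bag3 stood at 49.6, 69.5 and 48.6 CPM in hairpin, 35.5, 36.8 and 37.3 CPM in scramble and 54.5, 58.1 and 37.9 CPM in NASH GFP libraries. Against NASH GFP livers its log2 fold change was 0.16 ± 0.18 (edgeR adjusted p = 0.601), while Bag4 rose there too, by 0.68 ± 0.14.

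Of 12 genes for the constitutive HSP90 and HSP90 co-chaperones, 4 rose in hairpin against scramble livers, at a median of 0.22. Ahsa2, an activator of the HSP90 ATPase, rose by 0.79 ± 0.13 (SE, edgeR adjusted p = 0.00206). The client-handling genes Chordc1, Ptges3 and Stip1 rose by 0.56 ± 0.14, 0.42 ± 0.09 and 0.34 ± 0.10. Against NASH GFP livers 0 of the 12 rose and 1 fell, at a median of -0.10. The log2 fold change of Ahsa2 was 0.15 ± 0.16 there. Between the controls, 11 of the 12 genes had a log2 fold change below 0, at a median of -0.48, and 9 had an unadjusted p under 0.05. On the diet Fkbp5, a glucocorticoid-induced gene, rose by 0.81 ± 0.25 (edgeR adjusted p = 0.0464), and Fkbp4, which acts against it on steroid receptors, fell by 0.59 ± 0.18 (edgeR adjusted p = 0.0465).

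The cytosolic chaperonin, which folds actin and tubulin, had 8 subunits tested. In hairpin against scramble livers 4 rose, Cct5 by 0.32 ± 0.07 (SE, edgeR adjusted p = 0.00646), Cct6a by 0.37 ± 0.08, Cct7 by 0.32 ± 0.09 and Cct8 by 0.28 ± 0.07. Cct5 stood at 106, 120 and 111 CPM in hairpin, at 92.9, 91.3 and 90.1 CPM in scramble and at 114, 127 and 119 CPM in NASH GFP libraries. Every scramble library lay below every hairpin and NASH GFP library for Cct5, while those 2 groups overlapped. Against NASH GFP livers 0 of the 8 were called, at a median of 0.03.

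Among 13 other mitochondrial chaperones and proteases, 3 rose and 1 fell in hairpin against scramble livers. Clpx, the unfoldase subunit of a matrix protease, rose by 0.98 ± 0.10 (SE, edgeR adjusted p = 0.000159), the inner membrane protease gene Yme1l1 by 0.28 ± 0.07 and Grpel2, a nucleotide exchange factor of mitochondrial HSP70, by 0.27 ± 0.07. Spg7, a subunit of another inner membrane protease, fell by 0.25 ± 0.07. Clpx stood at 105, 156 and 318 CPM in NASH GFP libraries, so that library 3 of that group was the high one. On the diet Grpel2 rose by 0.54 ± 0.14 (edgeR adjusted p = 0.0264).

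Of the small heat shock genes beside Hspb1, 3 were tested and 0 were called against scramble livers. Hspb6 rose in hairpin against NASH GFP livers by 0.84 ± 0.12 (SE, edgeR adjusted p = 0.00563). Its level was 22.4, 23.3 and 20.4 CPM in hairpin, 22.0, 17.2 and 21.2 CPM in scramble and 11.8, 12.1 and 13.1 CPM in NASH GFP libraries. Both hairpin RNA groups were therefore above NASH GFP livers for Hspb6. For Hspa8 the scramble livers lay below NASH GFP livers instead, and the Gpnmb hairpin livers overlapped them.

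Of 6 further heat-inducible genes, 2 fell in hairpin against scramble livers. Serpinh1, the collagen chaperone HSP47, fell by 1.15 ± 0.16 (SE, edgeR adjusted p = 0.000872) and Ier5 fell by 0.66 ± 0.21 (edgeR adjusted p = 0.0409). Against NASH GFP livers Serpinh1 fell by 2.02 ± 0.35 and Ier5 by 0.82 ± 0.18. On the diet Ier5 rose by 0.93 ± 0.21 (edgeR adjusted p = 0.0144). Stellate and smooth muscle cells, which make collagen, had markers that moved with Serpinh1: 7 of 10 fell against scramble livers, where their summed level was 249 to 389 CPM, to 101 to 155 CPM. Of all genes 12.0% fell in that contrast. The part of these cells in the Serpinh1 result was not tested.

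Clock and temperature-linked transcripts were read beside these results. In hairpin against scramble livers 11 of 13 clock genes were called, 3 higher and 8 lower, when 24.3% of all genes were called. Per3 stood at 6.24, 6.47 and 8.92 CPM in hairpin libraries and at 40.5, 48.9 and 44.4 CPM in scramble libraries, and Per2 at 16.2, 17.1 and 14.6 against 42.2, 39.9 and 39.4 CPM. Against NASH GFP livers 7 of 13 clock genes were called, where 0 of the 9 heat shock genes and 14.0% of all genes were. Between the controls 0 of 13 were called, when 0.324% of all genes were. There 3 of 13 had an unadjusted p under 0.05, as had 19.1% of all genes. Cirbp and Rbm3, RNA-binding genes induced by mild cold, did not pass the test in any comparison. Cirbp stood at 19.4, 15.8 and 19.6 CPM in hairpin and 23.6, 20.6 and 20.5 CPM in scramble libraries, a log2 fold change of -0.22 ± 0.11 (SE), and Rbm3 at 31.8, 29.6 and 22.9 against 26.6, 31.5 and 30.0 CPM (-0.04 ± 0.12). In chow livers Cirbp was 32.2, 10.9 and 22.8 CPM, highest in library 1, where Hspa1a and Hspa1b were lowest, and lowest in library 2, where they were highest. The part of the time of day or of temperature in these levels was not tested.

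**Figure D4:**
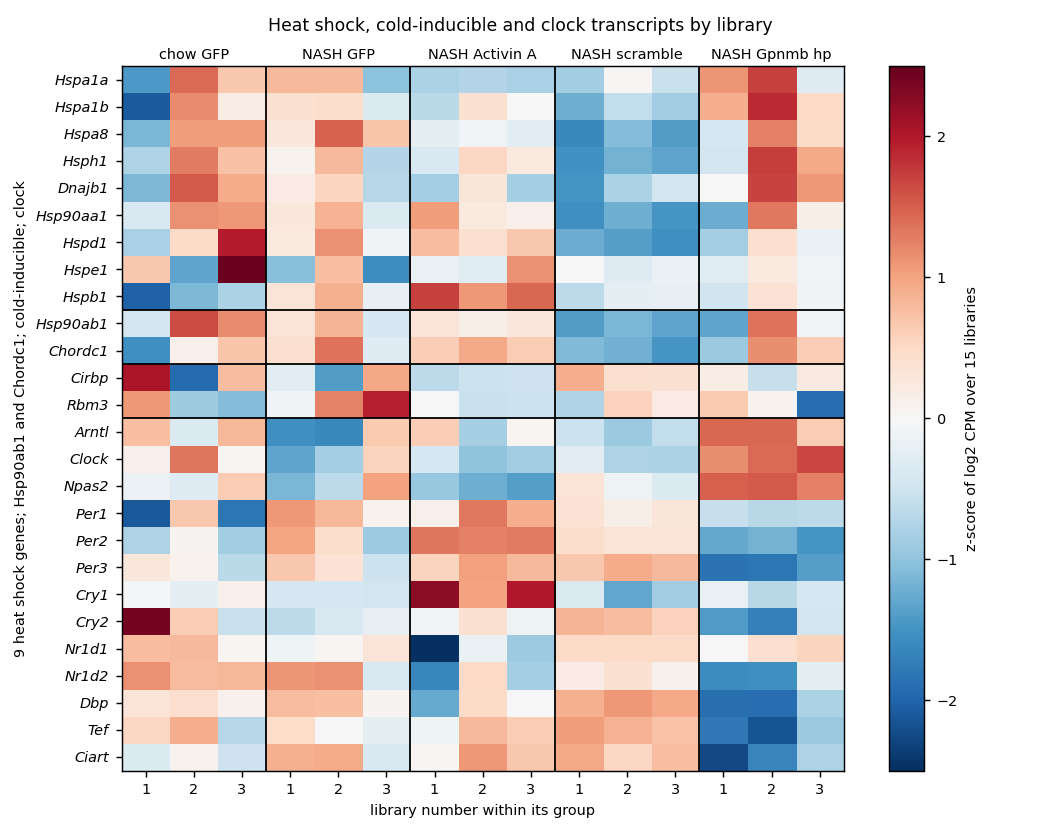
Level of each gene in each library as a z-score of log2 CPM over the 15 libraries (colour, blue for low and red for high), with libraries in columns by group and the 9 heat shock genes, Hsp90ab1 and Chordc1, cold-inducible and clock genes in rows. The scramble columns are blue for most heat shock rows, with mean z-scores of the 9 genes from -1.13 to -0.75, and the Per3 row is lowest in the Gpnmb hairpin columns, at 6.24 to 8.92 CPM.

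Markers of other cells also moved with the groups. In hairpin against scramble livers 8 of 10 macrophage markers fell, with a summed level of 354 to 476 CPM against 698 to 816 CPM, and 3 of 8 hepatocyte markers rose. Of all genes 12.2% rose and 12.0% fell in this contrast. Of 14 immediate early genes, which respond to handling and stress, 7 fell in this contrast, at summed levels of 204 to 251 against 312 to 365 CPM. On the diet 10 of 10 macrophage markers rose, from 254 to 307 CPM in sum to 769 to 865 CPM, as did Hspb1. There 3 of 8 hepatocyte markers fell and 0 rose, when 11.2% of all genes rose and 5.82% fell. Under Activin A 8 of 10 macrophage markers fell, to 343 to 416 CPM in sum, and 1 of 5 tested biliary markers fell, while Hspb1 stood higher. Of all genes 5.52% were called under Activin A, in either direction. Mitochondrially encoded transcripts took 5.07% to 7.43% of counts, with overlapping ranges in all groups. The part of these cells and responses in the heat shock levels was not tested.

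The genes most like the 9 in pattern were ranked by Pearson r of log2 CPM with the mean z-score of the 9 over 15 libraries, among 12236 genes, as a description. Chordc1 came highest with r = 0.90 and the constitutive HSP90 gene Hsp90ab1 next with r = 0.89. Slc5a3 (0.86), Herpud1 (0.86), P4ha1 (0.85), Zmpste24 (0.84), Ccdc127 (0.84) and Zbtb40 (0.84) followed. Hsp90ab1 stood at 906, 928 and 913 CPM in scramble, 913, 1183 and 1029.8 CPM in hairpin and 1070.5, 1126 and 995 CPM in NASH GFP libraries, so its scramble libraries lay below all NASH GFP libraries and overlapped the hairpin group through hairpin library 1. On deviations from the group means Chordc1 and Hsp90ab1 had r of 0.94 and 0.93 and ranked 2 and 3. The other 6 had r from 0.72 (Ccdc127, rank 242) to 0.84 (Zbtb40, rank 39). Hspa2, an HSP70 gene named here for its rank after its values were seen, was highest by that measure with r = 0.94, and had 0.63 over the 15 libraries. These libraries share their groups and depth, so r describes a shared order of libraries only.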

How the data were processed

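Per the labels' protocols, total liver RNA from a Qiagen RNeasy kit went into 15 stranded poly(A) libraries. The authors deposited 3 tables, each with whole-number counts per gene for the 6 libraries of its 2 groups, not normalized, per the file headers. Other values used, gene length and position, were likewise deposited by the authors per the file headers. A further 36 per-library columns were not used. The genome build was GRCm38 (mm10), per the submitters' processing notes (aligner, counting program and strand setting: not given in the sources used here). Date-like symbols (21, 22 and 22) were restored from gene identifiers. For the join of the tables, a gene absent from one got a count of 0 in its libraries.

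Genes were filtered with filterByExpr (minimum count 10), scaled with TMM factors and compared in edgeR 4.0.16 (quasi-likelihood F test, R 4.3.3) on the 2 groups alone, two-sided, with Benjamini-Hochberg adjustment over all genes tested and calls at an adjusted p under 0.05. SE is the log2 fold change divided by the square root of F. CPM (unit 1000000) use TMM factors over 15 libraries, and log2 CPM a pseudocount of 0.5. Groups do not overlap where all libraries of one lie above all of the other. No 2 libraries of a group were near-copies (chi-square per degree of freedom at least 5.19). The code was tested on simulated data. DESeq2 1.42.0 and limma 3.58.1 served as alternatives.

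The genes, lists and tests were chosen with earlier results of these data known. Named genes are all 9, of each pathway list at most 4 called genes by smallest p per comparison, Hsf1, Hsf2, Cirbp and Rbm3 always, at most 2 of each clock or marker list, and the 8 most alike in pattern among genes whose log2 CPM averaged 1 or more. The values of 1 listed gene are not reported here.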

Additional observations from a re-analysis of the deposited data

How the results depend on the processing

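Of the counts of called genes among the 9, that on the diet was 1 in every setting run. With DESeq2, Activin A gave 2 of the 9, 3 of the pathway genes and 1258 genes in all, the controls gave 5, 12 and 735, and the diet gave 9 pathway genes. With library size alone, hairpin against scramble livers gave 4 of the 9 and 3470 genes in all. Activin A gave 1 of the 9, 2 pathway genes and 909 genes, the diet 10 pathway genes and 3076 genes, and the controls 23 genes. On the diet that scaling moved the median over all genes (log2 fold change) from -0.01 to 0.24 and the share of called genes that were higher from 65.7% to 86.8%, and in hairpin livers the median to -0.11 and the share from 50.3% to 29.0%. With no filter on low counts, Activin A gave 1 of the 9, 4 pathway genes and 1297 genes, the controls 4, 9 and 576, and the diet 7 pathway genes. With limma voom the controls gave 1 of the 9 and 45 genes in all. With all 15 libraries in the fit, hairpin livers gave 4 of the 9, 7 pathway genes and 1880 genes, the diet 17 pathway genes and 4500 genes, Activin A 2 pathway genes, and the controls 2 pathway genes and 116 genes. The replicate block is a shared number only (correlations of same-numbered libraries from -0.13 to 0.0871). With it the diet gave 1597 genes and 1 pathway gene, and the controls 1 of the 9 and 69 genes. Hairpin livers gave 6 of the 9 and 2985 genes. The cause was not tested. With NASH GFP livers as controls of the hairpin livers, chosen after seeing the data, 0 of the 9, 7 pathway genes and 2053 genes were called, 25 of the 71 pathway genes had the opposite sign, and among genes followed under each alternative and called against either control, signs turned for Hspa8 (-0.13), Hsp90aa1 (-0.0226), Hspd1 (-0.12), Cct5 (-0.0878), Chordc1 (-0.0491), Ptges3 (-0.11), St13 (-0.0486), Stip1 (-0.18), Tat (-0.26) and Jchain (-1.96). Leaving out 1 library at a time gave 4 to 7 of the 9 in hairpin livers, 0 to 2 under Activin A, 0 to 8 between the controls and 1 on the diet; 10 to 22, 0 to 4, 0 to 22 and 0 to 4 pathway genes; and 1923 to 3496, 248 to 1435, 3 to 2034 and 1355 to 2233 genes in all. At 9 to 98 counts per library, the log2 fold changes of Hspa1a had SEs of 0.44 to 0.66, so small differences of that gene were not detectable.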
